A study of Mus musculus with 36 samples.

Results

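Lipid droplet coat proteins and the lipases that act on stored fat were followed through 6 mouse tissues. The set holds 10 genes, named from textbook knowledge of the droplet: the perilipins Plin1, Plin2, Plin3, Plin4 and Plin5, the CIDE proteins Cidec and Cideb, and the lipases Pnpla2, Lipe and Mgll. All 10 were found by Ensembl identifier in each of the 6 count tables, among 55991 gene identifiers listed in any of them. The study fed 6-week-old C57BL/6 wildtype males (C57BL/6N in the methods) either a high-fat (HFD) or a low-fat (LFD) diet, over 2 weeks, and asked what this changes in germ cells, embryos and offspring. Round spermatids and cauda spermatozoa (called sperm here) came from the fed males themselves. Morulae came from in vitro fertilization of oocytes of unexposed females with sperm of fed males, so the embryos never met the diet. Liver, epididymal white adipose tissue (eWAT) and gastrocnemius muscle came from chow-fed male offspring of HFD fathers, which the labels divide by glucose tolerance into HFDt and HFDi. No gene is deleted and no transgene is carried in any group.

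Each table holds 6 libraries. Sperm and morula have 3 libraries from HFD and 3 from LFD, and the letters of their column names give the diet. The columns of the other 4 tables carry only a library number, so which of these 24 libraries are HFD or LFD, tolerant or intolerant, cannot be told, and they are given by tissue, library by library, with no comparison inside a tissue. Their tie to a tissue rests on the table that holds them. In 3 of the 6 morula samples the free-text description gives the opposite diet to the title, the treatment field and the column letters, which were followed. The methods count 3 mice per diet for round spermatids. For sperm and morula the sources used here do not say whether libraries of a diet come from separate animals, so the p-values measure the spread between these libraries, which may be technical. Total counts were 20138842 to 31056066 in round spermatids, 11471251 to 12153141 in morula, 2560219 to 4062321 in sperm, 2036237 to 2552454 in liver, 1338149 to 4055537 in eWAT and 369772 to 2749920 in gastrocnemius. Levels are counts per 1000000 counts of the library (CPM). A gene with no count could still stand at 3 counts, equal to 1.09 to 8.11 CPM in gastrocnemius and at most 2.24 CPM in the other tissues, a limit for counting error alone. On genes of the mitochondrial genome fell 43.5 to 84.3% of sperm counts and 1.96 to 2.38% of round spermatid counts, so sperm levels per total count understate nuclear genes. Marker lists were checked in each table: Alb led the hepatocyte list in liver (median 32821 CPM), Car3 the adipocyte list in eWAT, Myh4 the muscle list in gastrocnemius, Prm2 the germ cell list in round spermatids, Odf1 (2484 CPM) that list in sperm and Nanog the embryo list in morula. In sperm the epididymal list summed to the same order as the germ cell list, with a median of 2950 CPM (1628 to 24994 CPM). This was so although sperm were purified by swim-up and checked under the microscope for somatic cells. The sum was mainly Crisp1 (median 2539 CPM) and Adam7 (407 CPM). Spink13 had a median of 4.40 CPM, and Lcn5 and Lcn8 had only 6 and 4 counts over the 6 libraries together. The adipocyte list was also counted in round spermatids, at a sum of 16 to 19.5 CPM with 5 of 5 genes counted and Adipoq at 16.5 CPM, and the part of these markers' cells in the member levels was not tested.

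A lipid droplet is a core of triglyceride and sterol esters under a phospholipid monolayer, and the proteins on that monolayer decide how readily the fat is released. Perilipins coat the droplet: Plin1 is the gatekeeper of the adipocyte, Plin2 and Plin3 are found in many cell types, Plin4 is known from fat and muscle, and Plin5 sits where droplets meet mitochondria in oxidative tissues. CIDE proteins pass lipid from droplet to droplet, Cidec in fat and Cideb in liver. Release runs in a chain, with Pnpla2 (adipose triglyceride lipase) on triglyceride, Lipe (hormone-sensitive lipase) on diglyceride and Mgll on monoglyceride.

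Many droplet genes are targets of nuclear receptors that read the hexamer AGGTCA, so it was searched for on both strands in the RefSeq promoter windows (GRCm38.p6, 300 bases each) of the members. It was present in 3 of 14 windows, from 2 of the 10 genes (Plin2 and Plin5), against 16.3% of 32851 windows of all genes. The direct repeat of the hexamer with 1 base between (DR1), every match of which is also a match of the hexamer, was in 0 of the 14 and in 0.0396% of all. The bases upstream of the annotated gene starts of Plin2 and Plin5 are shown 5′ to 3′ along the gene's strand, with the match in capitals. A match describes the letters and is not a binding site.
Plin2 (minus strand, chr4:86670061-86670309): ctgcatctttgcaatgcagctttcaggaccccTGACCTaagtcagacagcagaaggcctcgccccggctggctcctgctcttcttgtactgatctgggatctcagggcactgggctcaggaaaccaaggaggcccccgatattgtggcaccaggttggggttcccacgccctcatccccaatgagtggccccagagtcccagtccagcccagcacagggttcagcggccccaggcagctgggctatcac
Plin5 (minus strand, chr17:56117597-56117798): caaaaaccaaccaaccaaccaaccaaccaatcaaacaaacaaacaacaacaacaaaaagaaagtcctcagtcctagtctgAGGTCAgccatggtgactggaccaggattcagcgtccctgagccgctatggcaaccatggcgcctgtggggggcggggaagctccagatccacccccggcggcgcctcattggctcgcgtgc
The Plin2 match lies on the opposite strand, its first base 217 bases before the gene start, and that of Plin5 on the gene's own strand 122 bases before it.

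Each tissue had its own perilipin mix. In round spermatids Plin2 made up a median of 76.1% of the 5 perilipins (73.5 to 79.8% over 6 libraries, counts per kb of exon) and Plin3 21.2%. In morula the same pair shared the pool, with medians of 52.1% for Plin2 and 44.1% for Plin3, and Plin2 led in 5 of 6 libraries. On plain counts the morula medians were 49.7% and 45.5%, and Plin2 led in 4 libraries and Plin3 in 2. Liver was a Plin2 tissue (median 89.0% of perilipin counts, 84.7 to 92.5%) with Plin5 next at 7.75%. In eWAT Plin4 led in 6 of 6 libraries (median 57.5%, 46.3 to 64.6%), followed by Plin2 at 19.5% and Plin1 at 18%. In gastrocnemius Plin4 again led in 6 of 6 (median 76.9%), with Plin3 and Plin5 at 8.73% and 8.72% of counts (11% and 19.7% per kb). Sperm held few perilipin reads, 1 to 80 counts per library, and Plin3 was the highest in 6 of 6. Shares are per kb for the 3 tissues sequenced along whole transcripts (Nextera kit) and plain counts for the 3 sequenced from the 3′ end (QuantSeq), where a transcript gives a tag whatever its length. Among the Nextera tissues sperm was read single-end, round spermatids and morula paired-end, and the part of this in their levels was not tested. Per kb, Plin4 led in 5 of 6 eWAT libraries and Plin2 in the other.

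**Figure D1:**
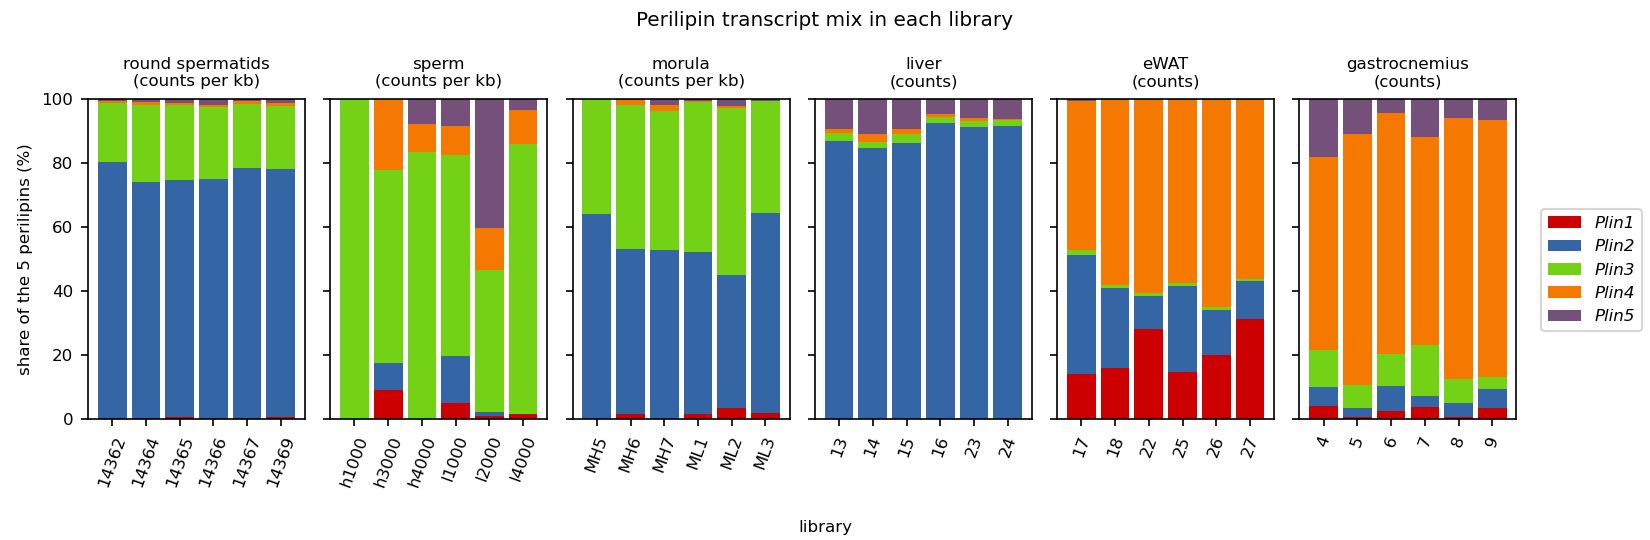
Share of each perilipin among the 5 (percent, stacked) in each of 36 libraries, as counts per kb in the first 3 tissues and counts in the last 3. Plin2 fills most of the liver and round spermatid bars, Plin4 most of the eWAT and gastrocnemius bars, and the sperm bars rest on 1 to 80 counts.

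Plin1, the adipocyte coat that holds lipolysis in check, was an eWAT gene. Its level in eWAT was 556, 594, 955, 835, 949 and 1375 CPM in libraries 17, 18, 22, 25, 26 and 27. In gastrocnemius it was 13.5, 1.45, 6.10, 11.8, 1.80 and 7.89 CPM in libraries 4 to 9, which is 4 to 14 counts, and in liver it had a single count, in library 23. The eWAT and gastrocnemius ranges did not overlap and their medians differed 128-fold. The 3 gastrocnemius libraries with the most Plin1 (4, 7 and 9) were also those with the most Adipoq, an adipocyte hormone, at 54.1, 47.0 and 46.8 CPM against 4.00, 3.88 and 8.12 CPM in libraries 5, 6 and 8. All 5 adipocyte markers had counts in gastrocnemius, their sum was 1063 to 2425 CPM and mostly Car3, which muscle also makes, and their part in the Plin1 level was not tested. Liver library 23 also held 25 counts of Adipoq, against 0 to 2 in the other 5. In round spermatids, sperm and morula Plin1 was at most 1.57 CPM.

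Plin2, the coat found in most cells that store fat, was highest in liver and eWAT, whose ranges overlapped. In liver it was 850, 951, 1057, 1260, 1293 and 2312 CPM in libraries 13, 14, 15, 16, 23 and 24, and in eWAT 1483, 933, 352, 1535, 665 and 522 CPM in libraries 17, 18, 22, 25, 26 and 27. The eWAT libraries thus fell 4.36-fold apart, and the order of Plin2 among them was not that of Plin1: library 27 had the most Plin1 and the next to lowest Plin2. Gastrocnemius had 8.0 to 18.9 CPM, and its median was 63.0-fold under that of eWAT. Among the whole-transcript tissues Plin2 was 52.5 to 64.9 CPM in round spermatids, 14.3 to 25.5 CPM in morula and 0 to 3.09 CPM in sperm, with no overlap between the 3.

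Plin3, which shuttles between cytosol and new droplets, was the most even member. Its medians were 40.5 CPM in eWAT, 25.3 CPM in liver and 22.2 CPM in gastrocnemius, and the ranges of neighbours in that order overlapped. In morula it was 13.2 to 20.1 CPM and in round spermatids 9.20 to 13.1 CPM, ranges that just missed each other. Sperm spread from 0.334 to 18 CPM around a median of 9.14 CPM. On counts of nuclear genes alone the sperm median was 28.2 CPM, above 22.9 CPM in morula and 10.1 CPM in round spermatids, so the place of sperm in this order depends on the scale.

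Plin4, known from adipocytes and muscle fibres, stepped down without overlap from eWAT to gastrocnemius to liver. It was 1844 to 3263 CPM in eWAT (median 2311), 175 to 223 CPM in gastrocnemius (median 199) and 7.86 to 29.9 CPM in liver (median 13.4). The gastrocnemius libraries, at 197, 223, 175, 200, 209 and 185 CPM, were the most alike of any member with counts in that tissue. Their SD on the log2 scale was 0.124, against a median of 0.296 over 656 genes of like level (within 1 log2 unit). Round spermatids, sperm and morula had at most 5.90 CPM. Plin4 shares 17 exonic bases with Hdgfl2, whose level was 12.8 to 39.6 CPM in the 3 offspring tissues. On GRCm38 Plin4 (chr17:56100591-56109803), Plin5 (chr17:56111601-56117596) and Plin3 (chr17:56277476-56292873) lie on the minus strand of the same chromosome, Plin1 is at chr7:79720218-79732903 and Plin2 at chr4:86648386-86670060, also on the minus strand.

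Plin5, the coat tied to mitochondria, was a liver gene here: 92.1, 122, 115, 64.9, 85.2 and 155 CPM in libraries 13, 14, 15, 16, 23 and 24. It was 9.98 to 59.5 CPM in gastrocnemius and 10.9 to 31.0 CPM in eWAT, which overlapped, and the liver median was 4.48-fold that of gastrocnemius with no overlap. On counts of nuclear genes alone the medians were 139 CPM in liver and 36.4 CPM in gastrocnemius. On that scale the ranges overlapped, with gastrocnemius library 4 above liver library 16. In muscle libraries 4, 5 and 7 had 59.5, 30.9 and 36.3 CPM and libraries 6, 8 and 9 had 9.98, 14.9 and 15.2 CPM, on 18 to 85 counts each. It was at most 0.805 CPM in round spermatids and 0.436 CPM in morula, and 20 of its 25 sperm counts came from library l2000.

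**Figure D2:**
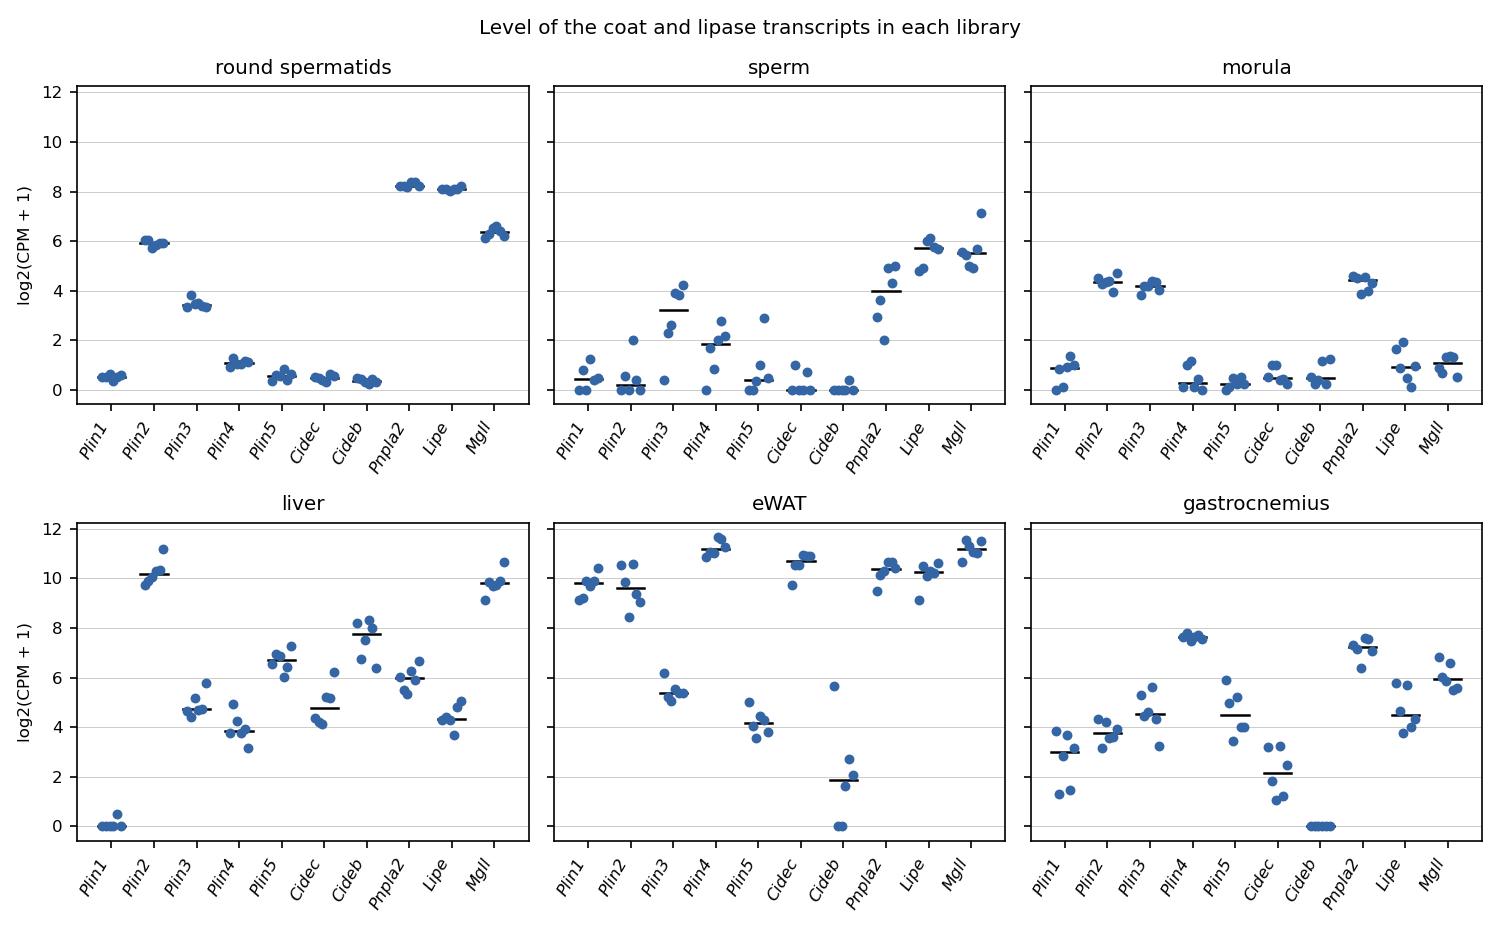
Level of the 10 members as log2(CPM + 1) in each library (points) with the median (bar), by tissue. In the lower row, which shares a kit, the points of Plin1, Plin4, Cidec, Pnpla2, Lipe and Mgll are highest in eWAT and those of Plin5 and Cideb in liver, and in the upper row those of Pnpla2 and Lipe are highest in round spermatids.

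The CIDE genes split by tissue. Cidec, which lets adipocyte droplets grow into a single large one, was 857, 1494, 1493, 1950, 1901 and 1900 CPM in eWAT libraries 17, 18, 22, 25, 26 and 27, and made up a median of 99.7% of the CIDE counts. In liver it was 19.6, 17.7, 16.6, 36.4, 35.4 and 73.7 CPM in libraries 13, 14, 15, 16, 23 and 24, and in gastrocnemius 1.11 to 8.55 CPM on 2 to 8 counts. The 3 ranges did not overlap and the eWAT median was 61.8-fold that of liver. Cideb, which takes part in loading very low density lipoprotein, was 297, 106, 180, 322, 259 and 82.5 CPM in the same liver libraries and a median of 88.8% of their CIDE counts. It had 0 counts in all 6 gastrocnemius libraries and in eWAT libraries 18 and 22, and 2.12 to 5.59 CPM in eWAT libraries 25, 26 and 27. Cidea, the CIDE gene known from brown fat, stood at 0.532 to 8.83 CPM in eWAT, 0.727 to 8.11 CPM in gastrocnemius and 1 count in all of liver. In round spermatids, sperm and morula the 3 CIDE genes together had at most 32 counts in a library, too few to rank them.

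Of the 1488 exonic bases of Cideb, 1136 overlap Nop9 on the other strand, and the strand setting of the counting is not given in the sources used here. Nop9 was 8.34 to 16.2 CPM in liver, 9.37 to 18.5 CPM in eWAT and 9.62 to 23.3 CPM in gastrocnemius, where Cideb had no count. In the whole-transcript tables Nop9 was far above Cideb, at 234 to 253 CPM in round spermatids and 31.4 to 62.4 CPM in morula, so the few Cideb counts there are uncertain. Cideb lies at chr14:55754050-55758458 and Cidec at chr6:113424634-113435760 (GRCm38, minus strand).

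By median level per kb of transcript, Pnpla2 and Lipe stood above every coat gene in round spermatids, and all 3 lipases did in sperm. Pnpla2, the first enzyme of the chain, was 300, 300, 286, 330, 335 and 301 CPM in round spermatid libraries 14362, 14364, 14365, 14366, 14367 and 14369. Lipe, the next enzyme, was 276, 270, 260, 276, 278 and 298 CPM there. Mgll, the last, was 69.3, 77.4, 92.3, 96.3, 84.1 and 73.3 CPM. Per kb of exon the medians were 99.5 for Pnpla2, 47.0 for Lipe, 17.1 for Plin2 and 15.9 for Mgll, so Mgll stood level with the leading coat gene. The spread of Lipe over these 6 libraries was an SD of 0.0646 on the log2 scale, against a median of 0.0699 over 1477 genes of like level, whereas Mgll had 0.187 against 0.0830.

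In sperm, medians per kb were 8.81 for Lipe, 8.82 for Mgll and 5.02 for Pnpla2, against 2.41 for Plin3, the highest coat. In CPM, Lipe was 26.7 to 69.7 in sperm, a median 5.33-fold under that of round spermatids with no overlap, and Mgll was 28.8 to 141, which overlapped. Library h4000 had less Pnpla2 than Plin3 (0.990 against 1.36 per kb). On counts of nuclear genes alone the sperm medians were 161 CPM for Lipe, 172 CPM for Mgll and 52.7 CPM for Pnpla2, against 283, 82.5 and 307 CPM in round spermatids. The order of sperm and round spermatids for Mgll, and that of sperm and morula for Pnpla2, thus flips with the scale, and Lipe, at 88.4 to 298 CPM in sperm and 265 to 304 CPM in round spermatids, overlaps on nuclear counts. The epididymal markers given above were counted in these same sperm libraries. Lipe shares 918 exonic bases with an antisense gene, 4732471J01Rik (at most 2.45 CPM in sperm), and Mgll shares 167 bases with Gm26588, which was 5.68 to 52.7 CPM in sperm. Their positions on GRCm38 are chr7:25379527-25398710 for Lipe (minus strand), chr6:88724412-88828360 for Mgll and chr7:141455198-141460743 for Pnpla2 (plus strand).

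Morula had the first lipase without the others. Pnpla2 was 13.7 to 23 CPM (166 to 271 counts), whereas Lipe was 0.0872 to 2.80 CPM (1 to 34 counts) and Mgll 0.421 to 1.57 CPM (5 to 19 counts). The median of Mgll was 38.4-fold and that of Lipe 58.0-fold under sperm, both without overlap. On nuclear counts these ratios were 111-fold and 133-fold, also without overlap.

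In the offspring tissues all 3 lipases were highest in eWAT. There Pnpla2 was 714, 1116, 1275, 1630, 1600 and 1364 CPM in libraries 17, 18, 22, 25, 26 and 27, Lipe 555, 1462, 1102, 1260, 1205 and 1591 CPM, and Mgll 1620, 2996, 2525, 2138, 2103 and 2888 CPM. Library 17 was the lowest for each. Mgll was also a liver transcript (553 to 1598 CPM, median 893), 2.61-fold under eWAT and 14.7-fold over gastrocnemius. Its eWAT and liver ranges just missed each other, at 1620 CPM in eWAT library 17 and 1598 CPM in liver library 24. On counts of nuclear genes alone these ranges overlapped, with liver library 24 above eWAT library 17. Liver held little of the enzymes before Mgll, with 39.1 to 102 CPM of Pnpla2 and 11.8 to 31.9 CPM of Lipe. Gastrocnemius held Pnpla2 at 83.7 to 192.3 CPM, Lipe at 12.8 to 54.1 CPM and Mgll at 44.7 to 114 CPM. Lipe did not part liver from gastrocnemius, since the ranges overlapped. In muscle Lipe and Mgll were highest in libraries 4 and 7, which also had the most Lpl (2017 and 2853 CPM, against 537 to 924 CPM in the other 4). Adipoq was high in both, but nearly as high as in library 7 also in library 9, where Lipe, Mgll and Lpl were lower.

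The partners of the lipases differed by tissue too. Abhd5, the activator of Pnpla2, was 130 to 147 CPM in round spermatids, 88.2 to 154 CPM in eWAT, 25.4 to 51.3 CPM in gastrocnemius, 13.3 to 27 CPM in liver and a median of 22.2 CPM in morula and 14.8 CPM in sperm. G0s2, an inhibitor of Pnpla2, was 47.1 to 216.5 CPM in eWAT and at most 8.55 CPM in muscle, had 2 to 10 counts in round spermatids and none in morula. By median CPM the first 3 of the 12 partner genes were Aqp7 (a glycerol channel, 148), Abhd5 and Hilpda (another Pnpla2 inhibitor, 18.9) in round spermatids. They were Ces1d (27.6), Lipg (27.5) and Abhd5 in sperm and Abhd6 (45.0), Abhd5 and Hilpda (6.60) in morula. In liver they were Ces1f (259), Lipa (lysosomal lipase, 227) and G0s2 (110), in eWAT Lpl (lipoprotein lipase, 10423), Ces1d (207) and G0s2 (157), and in gastrocnemius Lpl (798), Abhd5 and Hilpda.

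Of the 12 genes of droplet assembly, round spermatids had most of Bscl2 (seipin, 408 CPM), Dgat2 (227 CPM) and Dgat1 (67.9 CPM), the last pair being triglyceride synthases. The first 3 were Tmem159 (a seipin partner, 26.4), Rab18 (24.6) and Ldah (15.7) in sperm and Ldah (88.9), Rab18 (68.2) and Tmem159 (67.3) in morula. Liver led with the droplet dehydrogenases Hsd17b13 (624.8) and Hsd17b11 (532.7), then Rab18 (67.9). In eWAT Bscl2 (187), Hsd17b11 (150) and Dgat1 (122) came first, and in gastrocnemius Fitm1 (a muscle form of the FIT proteins, 74.4), Acsl3 (59.4) and Rab18 (55.0).

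Within liver the members spread more than genes of like level. The SD on the log2 scale was 0.812 for Cideb against 0.249 for 788 such genes, 0.810 for Cidec against 0.319 for 3204, and 0.510 for Plin2 against 0.279 for 105. Library 24 had the most Plin2, Plin3, Plin5, Cidec, Mgll, Pnpla2 and Lipe and the least Cideb and Plin4. Its Alb was also the lowest of the 6, at 19294 CPM against 21179 to 38866 CPM. Its skeletal muscle markers summed to 73.2 CPM against 10.6 to 23.6 CPM in the other 5, and its leukocyte markers to 89.4 CPM against 26.5 to 54.8 CPM, and their part in the member levels was not tested. G0s2 ran from 25.5 to 414 CPM (SD 1.59 against 0.261 for 1336 genes) and had its own order: it was high in libraries 16 and 23 (347 and 414 CPM), where Cideb was 322 and 259 CPM, and low in libraries 14, 15 and 24 (25.5, 52.6 and 62.9 CPM), where Cideb was 106, 180 and 82.5 CPM. Library 13 lay between, with 157 CPM of G0s2 and 297 CPM of Cideb. Without library 24 the liver medians moved by less than the SD of each of the 10 members. That SD included library 24, and a median moves little when 1 extreme value is left out, so this does not measure the weight of library 24.

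Within eWAT, library 17 stood apart. It had the least Plin1, Plin4, Cidec, Pnpla2, Lipe and Mgll and the most Plin3, Plin5 and Cideb, with Plin3 at 71.5 CPM against 32.1 to 45.1 CPM in the other 5 and Cideb at 49.0 CPM against 0 to 5.59 CPM. It also had the lowest Adipoq (4228 CPM against 6078 to 8171 CPM) and the lowest adipocyte marker sum, 32957 CPM against 43059 to 56830 CPM. Of the lists for other cells, the germ cell, Sertoli and epididymal lists were highest in it. The germ cell list, with 6 of 6 genes counted, summed to 63.5 CPM against 0 to 2.29 CPM, and the Sertoli list to 345 CPM against 6.65 to 25.2 CPM, of which Sox9 was 322 CPM and Cldn11 the rest, with Amh and Rhox5 at 0 counts. The epididymal list, with 3 of 5 genes counted, summed to 10.8 CPM there and 0 to 8.22 CPM elsewhere, and the hepatocyte list to 234 CPM, inside the range of 40.4 to 655 CPM of the others. Leukocyte, endothelial and skeletal muscle markers were highest in library 25, and erythroid markers were lowest in library 17. The part of these cells in the member levels was not tested. In bulk samples fewer cells of a type and less RNA per cell cannot be told apart. Leaving library 17 out moved no eWAT median of a member by more than its SD.

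**Figure D3:**
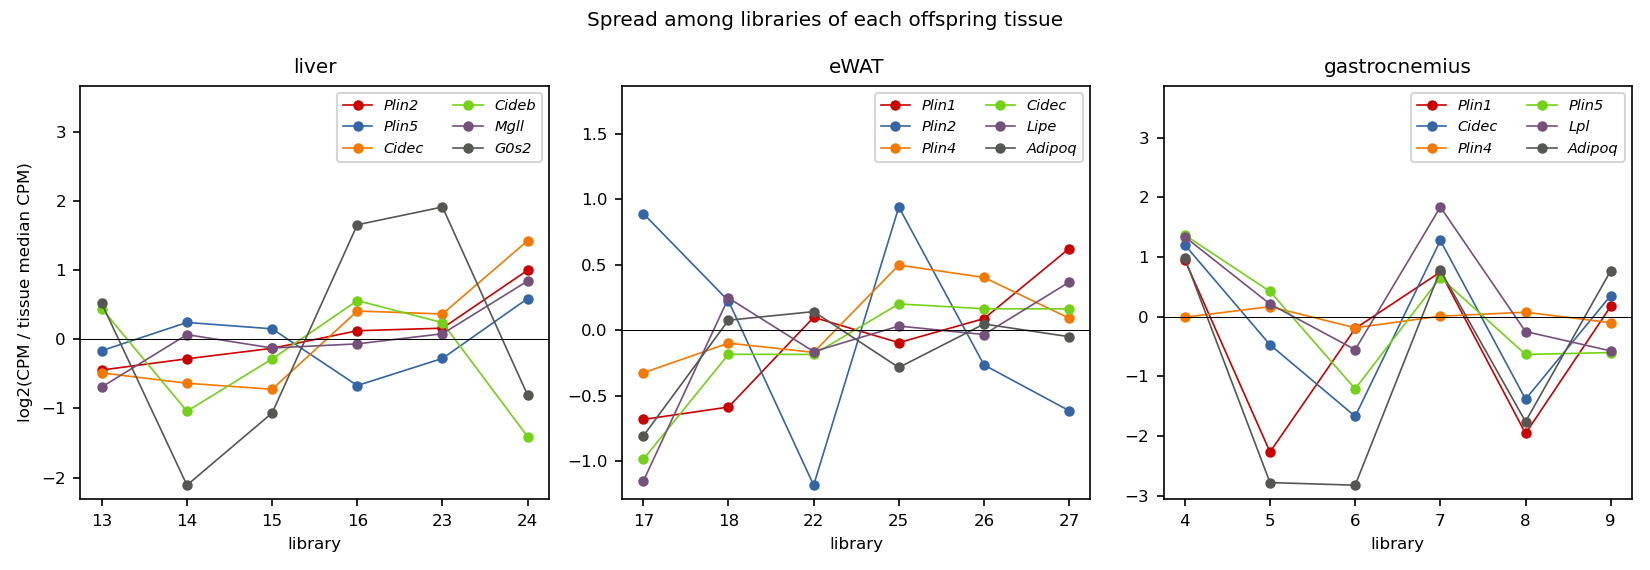
Levels relative to the tissue median, log2(CPM / median), of selected members and of G0s2, Lpl and Adipoq in the 6 libraries of liver, eWAT and gastrocnemius. In liver Plin2, Cidec and Mgll peak in library 24 where Cideb is lowest, in eWAT Plin1, Cidec and Lipe are lowest in library 17, and in gastrocnemius Plin4 stays flat while Plin1, Cidec and Adipoq are highest in libraries 4, 7 and 9. Lines join libraries for the eye and carry no order.

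The genes most like each coat were sought by Pearson's r of log2 CPM over the 18 libraries of liver, eWAT and gastrocnemius, among 9351 genes with a median of at least 10 CPM in a tissue. These libraries fall in 3 tissues and share a kit, so r describes mainly the order of the tissues. Plin1 was closest to Rbp7, Slc1a5 and Aoc3 (r = 0.993 for each), Cidec to Anxa5 (0.989), Myh9 (0.985) and Tacc1 (0.983), and Plin4 to S100a6, Adamts5 (both 0.989) and Tcf4 (0.988). Plin2 was closest to Serp1 (0.986), Sod1 (0.985) and Apoe (0.984). Plin5 was closest to Acaa2 (0.964) and Hadha (0.961), enzymes of fatty acid oxidation in mitochondria, and Mrpl15 (0.948). Plin3 had no close match, the first 3 being Bloc1s4 (0.837), Asb7 (0.831) and Uvrag (0.788).

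The effect of the diet was asked in sperm and in morula. In edgeR's quasi-likelihood test with Benjamini-Hochberg adjustment over all genes, 0 of 8643 genes in sperm (0%) and 0 of 13447 in morula (0%) passed an adjusted p of 0.05, and so no member did. At an unadjusted p under 0.05 there were 1124 genes (13%) in sperm, 8.38% higher on HFD and 4.63% lower, and 858 (6.38%) in morula, 3.55% higher and 2.83% lower, with Lipe among those higher in both. DESeq2 called 295 genes in sperm and 18 in morula, and limma-voom 0 in each, with no member among them. Of the 10 members 4 had enough counts for the test in sperm and 6 in morula. The diet values that follow are CPM scaled by edgeR's TMM factors, which in sperm were 0.440 to 0.710 on HFD and 1.52 to 2.62 on LFD. The sperm libraries also parted by diet in the mitochondrial share of counts (78.1 to 84.3% on HFD, 43.5 to 64.7% on LFD) and in the number of genes with a count (13007 to 16236 on HFD, 17284 to 19547 on LFD), and the part of these differences in the values was not tested.

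In sperm, Mgll was 91.6, 60.9 and 71.6 on HFD and 19.2, 32.8 and 55.5 on LFD, in the order of libraries h1000, h3000, h4000 and l1000, l2000, l4000. The groups did not overlap, as held for 20.4% of all genes tested (8.21% higher on HFD and 12.2% lower). The log2 fold change was 1.05 (SE 0.50, n = 3 per diet, edgeR adjusted p = 0.394). Lipe was 52.4, 41.0 and 143 on HFD and 46.5, 35 and 19.6 on LFD, which overlapped (log2 fold change 1.22, SE 0.56, edgeR adjusted p = 0.378). With library totals in place of TMM the median of all genes moved from -0.07 to -1.82, and the values were -0.87 for Mgll and -0.55 for Lipe. Relative to that median Mgll was 0.95 with library totals and 1.12 with TMM, and Lipe 1.26 and 1.29. Pnpla2 (log2 fold change -0.28, SE 0.61, edgeR adjusted p = 0.894) and Plin3 (-0.46, SE 0.87, edgeR adjusted p = 0.876) overlapped between the diets. With library totals Pnpla2 was -1.91 (edgeR adjusted p = 0.0490), which is -0.095 from the median of all genes on that scale. Library h1000 had 1 count of Plin3 where h3000 and h4000 had 16 and 19, and without it the Plin3 value was 0.023. On the same TMM scale the 5 epididymal markers summed to 3704 to 4062 on HFD and 1983 to 9527 on LFD, which overlapped (without TMM, 1628 to 2883 CPM against 3017 to 24994 CPM, which did not), and their part in these values was not tested.

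The other 6 members were too scarce in sperm to test. Over 3 libraries per diet Plin4 had 0, 9 and 3 counts on HFD and 9, 18 and 9 on LFD. Plin5 had 0, 0 and 1 against 3, 20 and 1, Plin1 0, 3 and 0 against 4, 1 and 1, and Plin2 0, 2 and 0 against 9, 1 and 0. Cidec had 4 counts against 2 in all, and Cideb 0 against 1. A difference in these genes was not detectable at this depth.

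In morula, the members with the most reads lay close together on the 2 diets. Plin2 was 22.8, 18 and 18.7 on HFD and 19.8, 14.6 and 26 on LFD (log2 fold change -0.02, SE 0.21, n = 3 per diet, edgeR adjusted p = 0.993). Plin3 was 13.7, 17 and 16.6 against 19.9, 19.7 and 15.7 (-0.23, SE 0.19, edgeR adjusted p = 0.884), and Pnpla2 24, 21.7 and 13.2 against 22.1, 15.1 and 19.1 (0.06, SE 0.23, edgeR adjusted p = 0.983). Plin1 had 0, 9 and 1 counts on HFD and 11, 18 and 12 on LFD. These did not overlap, as for 12.1% of all genes tested (5.94% higher on HFD and 6.18% lower), and the log2 fold change was -2.03 (SE 0.98, edgeR adjusted p = 0.769). Lipe had 25, 10 and 34 counts on HFD and 5, 1 and 11 on LFD, which overlapped (log2 fold change 1.97, SE 0.81, edgeR adjusted p = 0.729). Mgll had 10, 7 and 18 against 19, 17 and 5 (-0.26, SE 0.71, edgeR adjusted p = 0.975). Of the 4 members under the filter, which were not tested, Cidec had 5, 12 and 12 counts on HFD against 4, 4 and 2 on LFD, which did not overlap. Genes under the filter are not in the 12.1% above, and their share without overlap was not counted. Cideb had 5, 2 and 4 against 15, 2 and 16. On the TMM scale Plin4 was 0.0885, 1.01 and 1.19 against 0.0817, 0.356 and 0. Plin5 was 0, 0.0844 and 0.398 against 0.163, 0.444 and 0.172, and for Plin4, Plin5 and Cideb the diets overlapped.

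**Figure D4:**
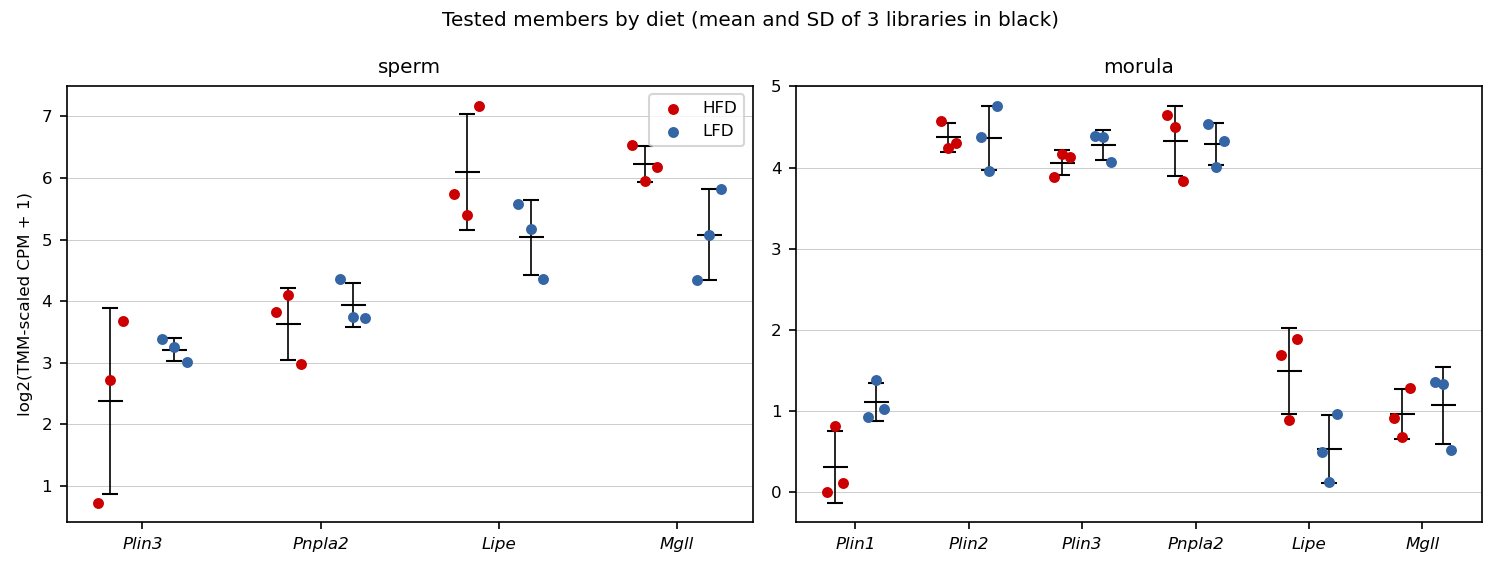
TMM-scaled level, log2(CPM + 1), of the members tested for diet in sperm (4) and morula (6), with each library as a point and the mean and SD of 3 libraries in black. Mgll in sperm and Plin1 in morula are the genes whose diets do not overlap on this scale, and with library totals, where the median of all sperm genes is -1.82, the Mgll log2 fold change is -0.87.

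The diet effect was then compared between sperm and morula for the 4 members tested in both, by a two-sided exact permutation test of the diets within each experiment over 400 arrangements, on log2 values. The difference, sperm minus morula, was 1.30 for Mgll (exact p = 0.125, adjusted over 4 p = 0.5), -0.74 for Plin3 (exact p = 0.715), -0.72 for Lipe (exact p = 0.59) and -0.36 for Pnpla2 (exact p = 0.5), each with an adjusted p of 0.715 but for Mgll. No member was shown to respond differently in the 2 cell types. The arrangements stand for no diet effect in either experiment, not for equal effects in both, so the test cannot show that the responses are alike.

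No partner or assembly gene passed the test for diet either. In sperm 4 of 12 lipase partners could be tested, 1 of them fitted higher on HFD and 3 lower (median log2 fold change -0.19), and 8 of 12 assembly genes, 2 higher and 6 lower (median -0.67). The highest and lowest were Lipa (0.96, SE 1.15) and Ces1d (-0.52, SE 0.67) among partners, and Dgat1 (3.36, SE 1.10, edgeR adjusted p = 0.255) and Tmem159 (-1.24, SE 0.56, edgeR adjusted p = 0.362) among assembly genes. The diets did not overlap for 1 of the 8 assembly genes in sperm (Tmem159) and 1 of the 9 in morula (Ldah), against 20.4% and 12.1% of all genes. In morula 5 of 12 partners (2 higher, 3 lower, median -0.02) ran from Abhd6 (-0.09) to Lipg (0.64), and 9 of 12 assembly genes (1 higher, 8 lower, median -0.16) from Hsd17b11 (-0.54) to Ldah (0.15). The median over all genes tested was -0.07 in sperm, with 4078 genes higher on HFD and 4565 lower, and 0.01 in morula, with 7017 higher and 6430 lower.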

How the data were processed

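RNA-seq gene counts of 36 libraries in 6 tables were analysed. The authors used BBDuk for trimming, STAR for alignment on GRCm38 and featureCounts for counting, and deposited raw counts, which are not normalized. Versions and strand setting are not given in the sources used here. Round spermatids, sperm and morula were Nextera libraries, and liver, eWAT and gastrocnemius QuantSeq 3′ libraries, so tissues were ordered only within a kit and no level was tested across tables. The Nextera tissues still differ in read layout, with sperm single-end and the others paired-end. For round spermatids the methods name total RNA depleted of ribosomal RNA (Ribo-minus), which they do not name for sperm or morula. The Nextera tables were counted on 51912 (round spermatids), 54838 (sperm) and 55487 (morula) gene identifiers. Gene lengths can differ too, as for Plin4 (5777 bases in sperm, 6350 in morula). Ratios between these tissues carry such differences. The diet effect, taken within each table, was compared between sperm and morula. The 24 columns of 4 tables that name no sample were used by tissue only. The deposited gene lengths gave counts per kb.

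Diet was tested in each experiment alone with edgeR 4.0.16 (R 4.3.3): filterByExpr with a minimum count of 10, TMM, quasi-likelihood test, Benjamini-Hochberg over all genes, threshold 0.05. DESeq2 1.42.0, limma-voom (limma 3.58.1), other scalings, no filter and leaving out each library were alternatives. The scripts were tested on simulated data. Log2 CPM used a prior count of 2. No pair of libraries of a tissue agreed within sampling noise (chi-square per degree of freedom at least 3.50).

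The members and gene lists were chosen with earlier results of these data known. Named genes are the members, Cidea, Abhd5 and G0s2, the 3 highest of each list per tissue, the extremes of each list for diet, and the 3 genes most like each perilipin and Cidec. Symbols were matched by Ensembl identifier. Promoter sequences are from RefSeq (GRCm38.p6), gene overlaps from GENCODE on GRCm38. Python 3.11.15 and matplotlib 3.10.9 drew the figures.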

Additional observations from a re-analysis of the deposited data

Results flagged for a closer look

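In groups of 6 libraries, a library was marked where its gap to the next was a large part of the whole range (Dixon's test at the 95% level), which chance does for about 1 in 20 groups. Of 38 member and tissue groups 6 were marked. In liver, library 24 was the high one for Plin2 (2312 CPM), Cidec (73.7 CPM) and Mgll (1598 CPM). In eWAT, library 17 was the high one for Plin3 (71.5 CPM) and Cideb (49.0 CPM). In round spermatids, library 14364 was the high one for Plin3 (13.1 CPM, against 9.20 to 10.3 CPM in the other 5).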

How the results depend on the processing

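Counts of genes called for diet moved with the tool and scaling. In sperm, library totals called 3266 genes and 1 member (Pnpla2), DESeq2 295 genes, no filter 41 and a replicate block by the number in the column names 2, against 0. In morula, no filter called 63 genes, DESeq2 18 and leaving out each library 0 to 2, the 2 without HFD library 5, and in sperm leaving out each library called 0. In sperm, deviations of like-numbered libraries correlated at 0.103 and -0.14. With so few libraries this cannot show whether the shared numbers mark a pairing. No paired analysis was possible for morula because its columns share no number between the diets.

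Some fold changes changed sign. In sperm these were Lipe (-0.55) and Mgll (-0.87) with library totals, a scale that moved the median of all sperm genes from -0.07 to -1.82 and on which they were 1.26 and 0.95 relative to it. The others were Plin3 without HFD library h1000 (0.023) and Pnpla2 without LFD library l1000 (0.035). Leaving out each library gave -1.32 to 0.023 for Plin3 and -0.58 to 0.035 for Pnpla2. In morula these were Plin2 with limma-voom (0.0044) and without a library (above 0 without HFD 6, HFD 7 or LFD 3, range -0.21 to 0.20), Pnpla2 without HFD 5, HFD 6 or LFD 2 (range -0.11 to 0.28) and Mgll without LFD 1 (range -0.65 to 0.0014). Lipe (1.49 to 2.88) and Plin1 (-4.51 to -1.48) kept their direction in all 12 alternatives in morula, at adjusted p of 0.640 and 0.715 or more. The difference between sperm and morula for Mgll became -0.44 with library totals (adjusted p = 0.67), which carries the same shift of all sperm genes. The cause was not tested. On the other length scale the leading perilipin was Plin2 in round spermatids (82.8%), morula (49.7%) and liver (85.04%). It was Plin4 in eWAT (47.8%) and gastrocnemius (63.2%). Of 60 member levels, 13 moved by more than 1 SD on nuclear counts, 39 on the per kb scale and 0 with the mean. Nuclear counts and the per kb scale change the unit of every level. The 13 and 39 thus do not measure how firm the levels are. Without gastrocnemius libraries 4, 7 and 9 the median of 1 member (Plin1) moved by more than its SD and those of 9 did not. Without library 4 alone all 10 stayed within it. The SD included the libraries left out, so these comparisons do not measure the weight of those libraries. Depth limits sperm, where 6 members could not be tested, and gastrocnemius library 4. Leaving out libraries that stood apart was added after the data were seen.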
